A study of Mus musculus with 7 samples.

Results

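The genes described are those of the proteasome, taken as every protein-coding row of the deposited table whose symbol starts with Psm, a letter from a to g and a number. The rule found 50 of 26019 gene rows. Of these, 49 encode parts of the proteasome, proteins that help to assemble it, or its regulators. The remaining row, Psmc3ip, encodes a meiotic recombination factor that shares only its name with the family, and 4 pseudogene rows with matching names were left out. RNA was measured in oocytes freed from secondary follicles of C57BL/6J mice, with 5 oocytes pooled per Smart-Seq2 library (cDNA made and amplified from polyadenylated RNA of a few cells). The libraries comprise wild type (WT, n = 4) and knockout (KO, n = 3). The series title and design text give the knockout as Mfn2-/-, while the genotype label reads Mfn1-/-. Age is P1 in the age label but 8 weeks in the protocol. The design text counts 3 mice per group, which does not match the 4 WT libraries. The promoter or Cre line behind the deletion and the animal behind each library were not given in the sources used here, and what p-values measure is the spread between libraries, which may be technical.

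The proteasome is the protease that degrades proteins tagged with ubiquitin. Its barrel-shaped core has outer rings of alpha subunits, which gate the entry, and inner rings of beta subunits, some of which cut peptide bonds. The regulatory particle that caps the core has a base, with a ring of ATPases that unfold the substrate, and a lid that removes its ubiquitin. Growing oocytes store proteasome proteins and mRNAs, and proteasome activity is needed for meiotic progression and after fertilization.

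Recovered reads in genes ranged from 6676076 to 8343915 per library. All 13 oocyte markers of the fixed list that had a row, among them Gdf9 and Zp3, were detected in every library. Their summed level was 198765 to 274259 normalised counts in WT and 233467 to 395268 in KO. Mfn2 RNA was lower in KO (28.7 ± 9.56 normalised counts, SD, n = 4, against 6.49 ± 1.70, SD, n = 3), and Mfn1 RNA was at 289 ± 36.3 and 330.3 ± 19.9. Normalised counts are reads divided by 1 size factor per library, and fold changes are KO over WT on the log2(value + 1) scale.

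Proteasome RNA was abundant in these oocytes and differed little between the groups. Only Psmd13, a lid subunit, passed the test, with a level about 2 times higher in KO (fold 1.99, 95% interval 1.52 to 2.60). The share of members called was thus 2.00% (1 of 50), against 6.71% of all 19227 genes tested (limma, Benjamini-Hochberg adjusted p under 0.05 over all genes). Among all genes 3.09% were called higher and 3.63% lower. All 50 members passed the filter on low values, Psmb9 only just, with WT 4, KO 2 and KO 3 as its only libraries above 0. The median log2 fold change was 0.00 over the 50 members and -0.01 over all genes, with 26 members positive and 24 negative. At an unadjusted p under 0.05 stood 14 members (28.0%), against 21.8% of all genes.

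The intervals show how large a difference these libraries leave room for. For 42 of the 50 members the 95% interval of the log2 fold change lay within 1 unit of 0, that is, within a 2-fold change in either direction. Over all genes tested, which include many with few reads, 48.5% did so. Genes of like level were not compared, so these shares do not set the proteasome apart. The other 8 members were Psma8, Psmb8, Psmb9, Psmb10, Psmd3, Psmd13, Psme1 and Psmg2. In 5 members every KO library lay above every WT library (Psmb8, Psmc6, Psmd13, Psme2 and Psmc3ip), a share of 10% against 9.37% of all genes. In 2 members, Psmg1 and Psmf1, every KO library lay below every WT library, a share of 4% against 9.83%.

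**Figure D1:**
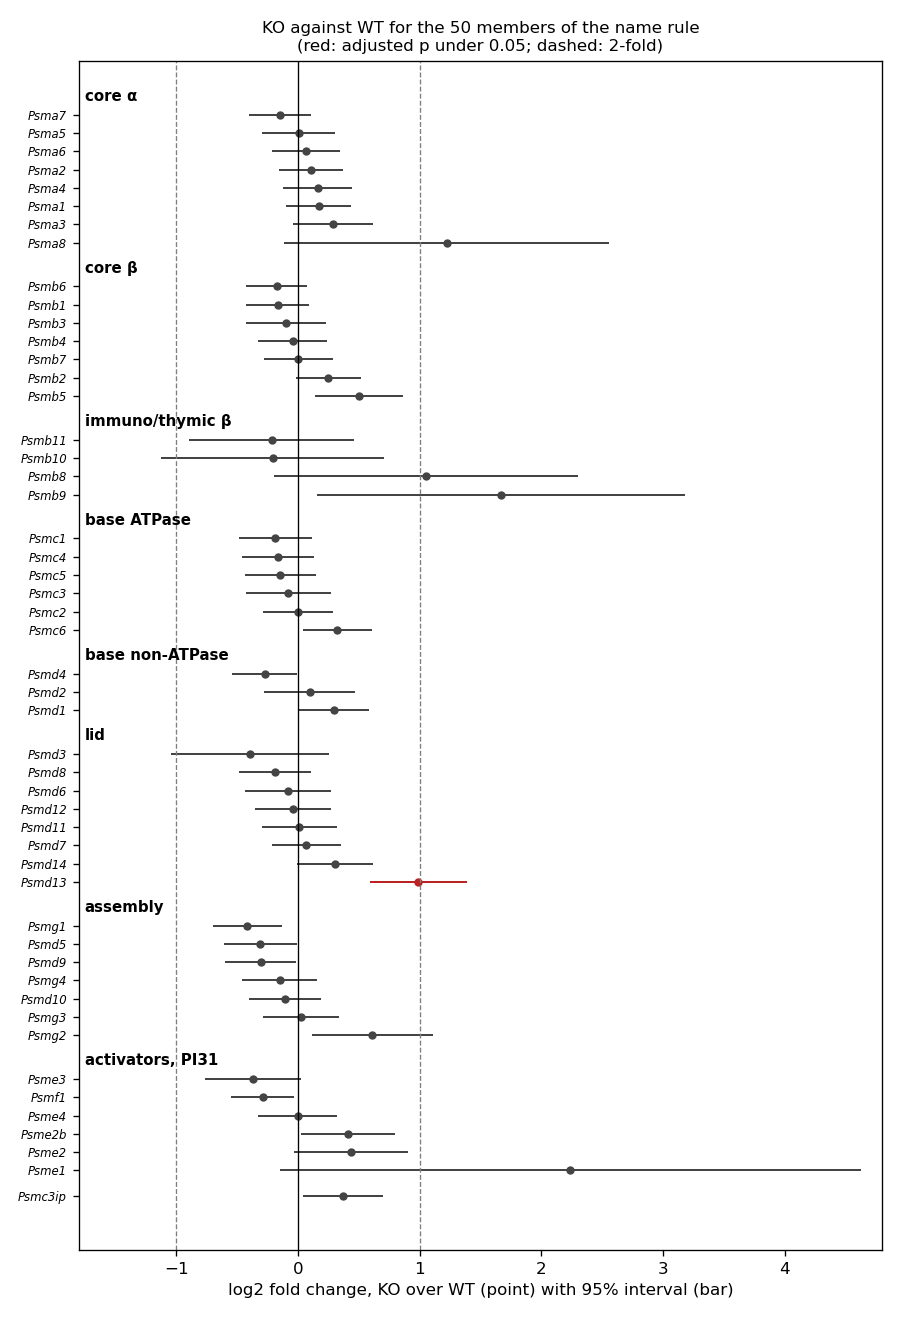
Log2 fold change (KO over WT, x axis) with its 95% interval for each of the 50 members, grouped by role. Psmd13 is the member that passed the test, at 0.99, and most other intervals lie between the dashed lines at a 2-fold change.

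In the core, the alpha ring genes Psma1 to Psma7 and the beta ring genes Psmb1 to Psmb7 were all abundant, with the lowest WT mean at 503 normalised counts (Psma3), and 0 of 15 core alpha and beta genes were called by limma. The count tests of DESeq2 and edgeR called 0 as well. Psmb5 was the single one at an unadjusted p under 0.05. The median log2 fold change was 0.14 for the 8 alpha genes and -0.04 for the 7 beta genes. For 14 of the 15 the interval lay within a 2-fold change. Its outermost bounds among these were -0.42 and 0.86. The exception, Psma8, is the alpha subunit that replaces Psma7 in spermatogenic cells. It had 1, 0, 4 and 3 reads in WT and 4, 10 and 3 in KO, too few to place its fold change (log2 fold change 1.22, 95% interval -0.10 to 2.55). Psma3 had 552, 504, 433 and 523 normalised counts in WT and 501, 623 and 732 in KO. The groups overlapped, and the difference did not pass (log2 fold change 0.29 with SE 0.15; limma adjusted p = 0.290).

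Of the beta subunits, Psmb5, Psmb6 and Psmb7 carry the active sites. Psmb5, which cuts after hydrophobic residues, had 889, 786, 823 and 1272 in WT and 1125, 1632 and 1226 in KO. WT 4 lay above KO 1 and KO 3, so the groups overlapped. The log2 fold change of Psmb5 was 0.50 (SE 0.17), the highest of the beta ring, and did not pass (limma adjusted p = 0.0814). It did pass without WT 4 (0.0206) or without KO 1 (0.0458), and its adjusted p over all alternatives ranged from 0.0197 to 0.951. The pseudogene Gm3375 is near-identical to Psmb5, and 36.8% of the 75-base stretches of Psmb5 also occur in other genes. Gm3375 itself had 187 ± 48.5 in WT (SD, n = 4) and 239.8 ± 59.3 in KO (SD, n = 3), so reads of Psmb5 may have been split between the rows. In all, 24 of the 50 members overlap another annotated gene, and 5 share over 20% of such stretches with one.

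Psmb6, which cuts after acidic residues, had 4199, 3994, 3935 and 4594 in WT and 3431, 3969 and 3731 in KO. Its KO libraries were all in the lower part of the range, with KO 2 between WT 3 and WT 2 (log2 fold change -0.17 with SE 0.12; limma adjusted p = 0.421). Psmb7, which cuts after basic residues, had 1652, 1716, 1658 and 1717 in WT and 1463, 1598 and 2062 in KO. The 4 WT libraries were close together and the KO libraries lay on both sides of them (log2 fold change 0.00, 95% interval -0.27 to 0.28). Psmb2 had 4025, 3662, 3537 and 4005 in WT and 3822, 4826 and 5021 in KO, with KO 2 and KO 3 above every WT library and KO 1 among them (log2 fold change 0.25 with SE 0.12; limma adjusted p = 0.240).

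The base of the regulatory particle showed a similar picture. Of its 6 ATPase genes 0 were called by limma, edgeR or DESeq2, 1 (Psmc6) had an unadjusted p under 0.05, and their median log2 fold change was -0.11. Psmc6 stood at the upper end, with 1079, 938, 940.3 and 1054 in WT and 1114, 1223 and 1451 in KO. Each KO library of Psmc6 lay above each WT library, but the difference did not pass (log2 fold change 0.33 with SE 0.13; limma adjusted p = 0.153). Psmc1 stood at the lower end, with 1936, 1501, 1393 and 1835 in WT and 1252, 1574 and 1557 in KO (log2 fold change -0.18 with SE 0.14; limma adjusted p = 0.485). The intervals of all 6 ATPase genes lay between -0.48 and 0.60.

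Among the 3 base genes that are not ATPases, 0 were called by limma, DESeq2 or edgeR, and 2 stood at an unadjusted p under 0.05 in opposite directions. Psmd4, a ubiquitin receptor, had 3815, 4252, 3670 and 3187 in WT and 3059, 3357 and 2838 in KO. KO 2 overlapped with WT 4 (log2 fold change -0.27 with SE 0.12; limma adjusted p = 0.208). Psmd1, a scaffold of the base, had 1066, 977, 836 and 981 in WT and 1056, 1171 and 1324 in KO. Here KO 1 lay below WT 1 (log2 fold change 0.29 with SE 0.14; limma adjusted p = 0.207).

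The lid held the called gene. Psmd13 (ENSMUSG00000025487, GRCm38 chromosome 7, 140881968 to 140898643, plus strand), a structural lid subunit, had 82.0, 105, 108 and 107 in WT and 187, 215 and 198 in KO. All KO libraries lay well above all WT libraries, with means of 101 ± 12.6 (SD, n = 4) and 200.2 ± 14.3 (SD, n = 3). The log2 fold change was 0.99 (SE 0.19; limma adjusted p = 0.00308). These values rest on 86 to 116 reads per WT library and 181 to 237 per KO library. Leaving out any 1 of the 7 libraries did not end the call (adjusted p 0.00418 to 0.0159). It was lost without KO 2 and KO 3 together (0.159), with mean granulosa marker level as a covariate (0.676) and without trend and robust variance estimation (0.0553). Under the other 9 alternatives the call held, with adjusted p from 5.5e-05 (DESeq2) to 0.00767 (library total scaling). The log2 fold change lay between 0.89 and 1.06 in every alternative run, those that lost the call included. The granulosa covariate was higher in every KO library than in every WT library. The fit that holds it therefore cannot tell it apart from the knockout.

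Psmd13 was also the lowest of the 8 lid genes. The other 7 had WT means from 332 (Psmd3) to 2104 (Psmd8) normalised counts, their log2 fold changes ran from -0.39 to 0.31, and 0 of them were called by limma, DESeq2 or edgeR. Psmd14, the deubiquitinase of the lid, had 676, 567, 599 and 665 in WT and 670.4, 745 and 924 in KO. KO 1 lay among the WT libraries (log2 fold change 0.31 with SE 0.14; limma adjusted p = 0.221). Psmd3, the lid gene with the widest interval and named for it after its values were seen, had 274, 431, 403 and 221 in WT and 357, 248 and 164 in KO (log2 fold change -0.39, 95% interval -1.03 to 0.25).

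**Figure D2:**
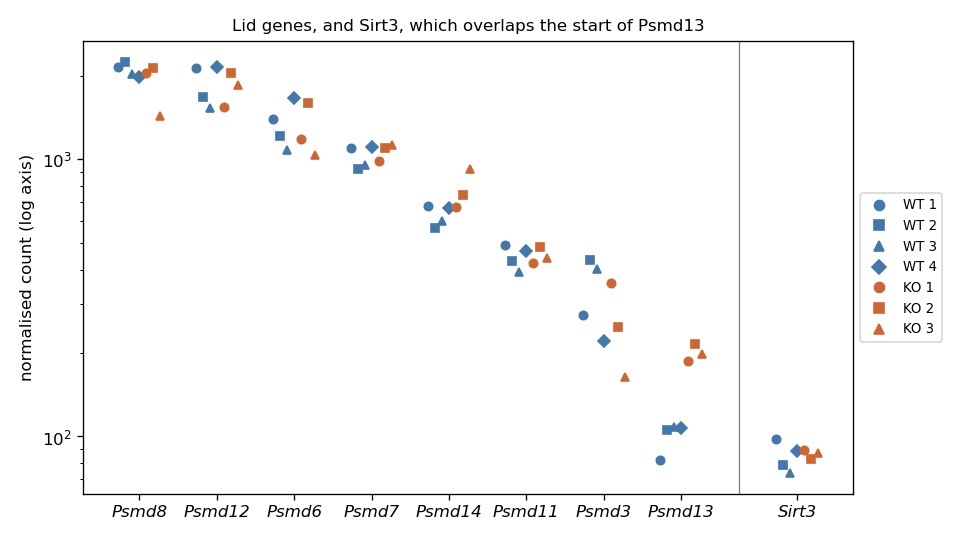
Normalised count (log axis) of the 8 lid genes and of Sirt3 in each library (blue WT, orange KO; symbols give the replicate number). The 3 KO libraries of Psmd13 lie at 187 to 215, above the 4 WT libraries at 82.0 to 108, while Sirt3 and the other lid genes overlap between the groups.

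The start of Psmd13 overlaps that of Sirt3, a mitochondrial deacetylase gene on the opposite strand, and the libraries do not mark strand. The genes share 342 exon bases, 10.1% of the exon bases of Psmd13 (GENCODE M21). Sirt3 had 98.2, 78.8, 73.8 and 88.8 in WT and 89.0, 82.7 and 87.5 in KO, with the groups overlapping (log2 fold change 0.03 with SE 0.21; limma adjusted p = 0.951). An intron of Psmd13 also holds the processed pseudogene Gm15542 on the same strand. It shares 0 exon bases with Psmd13 and had 2797 ± 163 in WT (SD, n = 4) and 2965 ± 305 in KO (SD, n = 3), many times the level of Psmd13 itself. How the authors' counting assigned reads in such overlaps was not given in the sources used here, and its part in the Psmd13 difference was not tested.

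The promoter windows of Psmd13 and of 2 uncalled members with log2 fold changes of opposite sign, Psmg1 (negative) and Psmc6 (positive), are shown because all 3 hold CCGGAAG, the core of sites bound by ETS-family factors. They come from RefSeq (GRCm38.p6) and run from 250 bases before to 50 after the annotated start. Capitals mark CCGGAAG and, in Psmc6, a match to TGACNNNGC read on the other strand.
Psmd13, chr7:140882144-140882443, plus strand: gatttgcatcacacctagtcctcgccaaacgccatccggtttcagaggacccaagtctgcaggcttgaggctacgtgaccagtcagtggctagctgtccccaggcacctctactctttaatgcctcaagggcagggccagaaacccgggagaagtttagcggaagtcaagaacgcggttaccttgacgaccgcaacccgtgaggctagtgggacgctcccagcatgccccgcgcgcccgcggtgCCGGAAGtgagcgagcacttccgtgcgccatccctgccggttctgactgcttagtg
Psmg1, chr16:95990911-95991210, minus strand: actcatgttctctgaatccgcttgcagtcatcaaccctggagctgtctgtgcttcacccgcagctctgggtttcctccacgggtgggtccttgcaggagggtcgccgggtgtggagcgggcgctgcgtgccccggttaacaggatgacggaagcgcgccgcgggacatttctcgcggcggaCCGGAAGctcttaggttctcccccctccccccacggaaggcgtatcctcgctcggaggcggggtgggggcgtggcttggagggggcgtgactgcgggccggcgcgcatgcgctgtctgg
Psmc6, chr14:45329574-45329873, plus strand: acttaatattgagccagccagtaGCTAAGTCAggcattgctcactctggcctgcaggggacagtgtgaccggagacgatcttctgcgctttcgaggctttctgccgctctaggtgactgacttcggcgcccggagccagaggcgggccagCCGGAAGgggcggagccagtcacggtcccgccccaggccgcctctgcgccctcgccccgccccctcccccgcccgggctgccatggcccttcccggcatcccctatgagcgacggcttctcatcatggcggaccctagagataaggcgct

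CCGGAAG begins 6 bases before the RefSeq start in Psmd13, 69 before it in Psmg1 and 100 before it in Psmc6. For Psmd13 this is not the GENCODE start given above. That one (140881968) lies before the first base of the window (140882144), so the window falls inside the gene as GENCODE draws it. The 5′ end of Sirt3 (140882309) falls inside the Psmd13 window. Of the 42 members with a RefSeq window, 15 (35.7%) held CCGGAAG on either strand, against 9.93% of all 27025 genes with a window and 18.4% of the 11084 protein-coding genes among those tested here. TGACNNNGC is the core of the antioxidant response element through which the factor Nfe2l1 acts on proteasome genes. It occurred in 6 members (14.3%; 14.0% of all genes and 16.5% of the tested protein-coding genes). These were Psmb5, Psmb6, Psmc6, Psmd9, Psmd12 and Psme4. CCAAT occurred in 15 members (35.7%; 41.1% of all genes and 43.2% of the tested protein-coding genes). The 15 members with CCGGAAG had log2 fold changes from -0.41 to 0.99 with a median of 0.00, and the 27 without it had a median of -0.04. These matches describe letters in the windows and nothing of binding.

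Among the 7 assembly genes, 5 had a negative and 2 a positive log2 fold change, and the median was -0.15 (-0.01 over all genes, of which 49.2% were positive). At an unadjusted p under 0.05 stood 4 of them, Psmg1, Psmd5 and Psmd9 with a negative sign and Psmg2 with a positive one, against 21.8% of all genes. Limma and edgeR called 0 of them and DESeq2 called 1, Psmg1. Psmg1 and Psmg2 encode the partners of a dimer on which the alpha ring is built, and they pointed in opposite directions. Psmg1 had 1011, 1028, 941 and 1098 in WT and 739, 714 and 845 in KO, each KO library lying below each WT library. Its log2 fold change was -0.41 (SE 0.13; limma adjusted p = 0.0614, and 0.0367 without KO 3). Over its other alternatives adjusted p ranged from 0.0313, the value given by DESeq2, to 0.909. Psmg2 had 94.4, 75.6, 64.5 and 70.4 in WT and 80.9, 127 and 151 in KO. KO 2 and KO 3 were above every WT library and KO 1 was among them (log2 fold change 0.61 with SE 0.24; limma adjusted p = 0.123, and 0.0270 without KO 1; up to 0.985 over its alternatives).

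Psmd5, Psmd9 and Psmd10 encode chaperones that guide the assembly of the base. Psmd5 had 1738 ± 147 in WT (SD, n = 4) and 1419 ± 276 in KO (SD, n = 3), and Psmd9 had 1513 ± 184 and 1224 ± 161. Neither difference passed (log2 fold changes -0.31 and -0.31; limma adjusted p = 0.204 and 0.192). Psmd9 shares 24.3% of its 75-base stretches with the overlapping row Gm26745, which had a mean of 0.234 in WT and 0.606 in KO. The 7 assembly genes together made up 0.0926%, 0.0903%, 0.0876% and 0.0932% of all normalised counts in WT and 0.0786%, 0.0793% and 0.0716% in KO. Each KO share was below each WT share, while the median deviation of the list from the WT mean overlapped between the groups (-0.20 to 0.15 in WT and -0.23 to -0.04 in KO, log2). In every other role, Psmc3ip aside, the shares overlapped. Of single genes, 9.83% of all tested had every KO library below every WT library. The share is set mainly by the genes with most counts, so Psmg2 hardly enters it.

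Seen library by library, the list medians of the core, base and lid differed as much among libraries of 1 group as between the groups. Over all 50 members the median log2 deviation from the WT mean (for a WT library, from the mean of the other WT libraries) was 0.11, 0.00, -0.20 and 0.13 in WT 1 to WT 4. It was -0.16, 0.12 and 0.08 in KO 1 to KO 3. The same median over all genes stayed between 0.00 and 0.02 in every library. WT 3 and KO 1 were the low libraries, and for the ATPase genes they stood at -0.34 and -0.31. For the alpha genes KO 3 was high, at 0.33, while for the ATPase genes it stood at -0.06. All members together took 0.925% to 0.975% of the normalised counts in WT libraries and 0.891% to 0.933% in KO libraries.

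**Figure D3:**
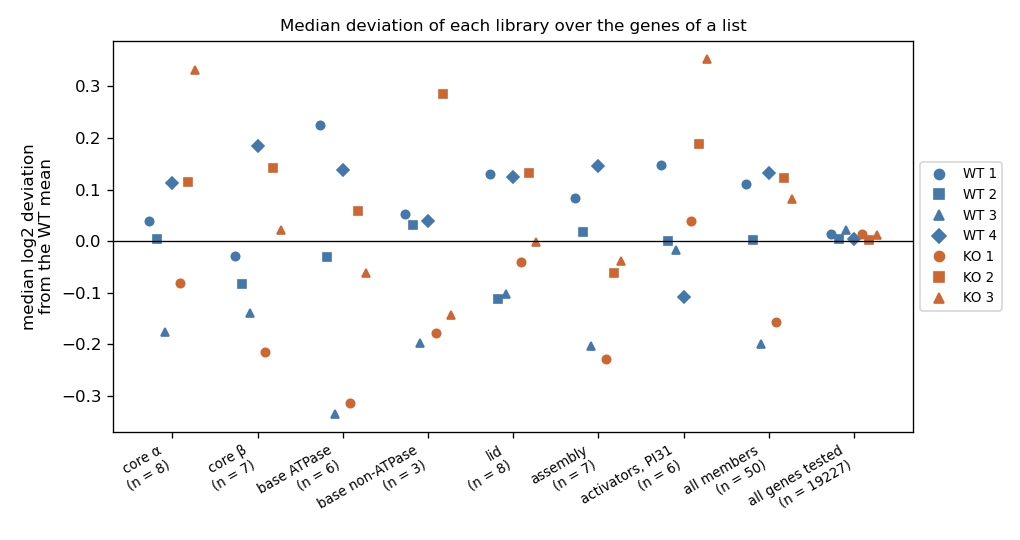
Median log2 deviation from the WT mean (y axis) of each library over the genes of each role, of all 50 members and of all 19227 genes tested (blue WT, orange KO; symbols give the replicate number). WT and KO libraries overlap in every list shown, and KO 1 and WT 3 lie low in most.

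Levels between genes were compared as normalised counts per kilobase of the main annotated transcript. In WT the median level per kilobase was 1453 for the beta ring, 1200.05 for the alpha ring and 1199 for the ATPases. It was 527 for the lid, 582 for assembly genes, 310.0 for the other base genes and 155 for the activators with Psmf1. These medians and their order depend on the length used. Over the union of all annotated exons, chosen after seeing the data, they were 664 for the beta ring, 752 for the alpha ring, 672 for the ATPases, 337 for the lid and 240.4 for assembly genes. On the main transcript, Psma7 (5669), Psmb6 (5238) and Psmb2 (4432) were the highest per kilobase, and Psmb9 (0.200), Psmb8 (0.910) and Psma8 (1.17) the lowest. Among the alpha genes Psma7 was followed by Psma6 (2465) and Psma1 (2249), and the lowest after Psma8 were Psma3 (177) and Psma5 (627). Psma5 shares 35.2% of its 75-base stretches with other rows, mainly Gm8394 and Gm12989. Their WT means were 728 and 231 normalised counts, against 777 for Psma5, so its reads may have been split and its rank is uncertain. The beta genes ran from Psmb5 (1048), Psmb4 (1095) and Psmb3 (1393) up to Psmb1 (1537), Psmb2 and Psmb6. The ATPases ran from Psmc6 (449), Psmc3 (520) and Psmc1 (1047) up to Psmc4 (1350.0), Psmc2 (1358) and Psmc5 (1890). The highest lid genes were Psmd8 (1366), Psmd12 (984) and Psmd6 (965). With the union of exons the highest were Psmb2 (3162), Psmb6 (2233) and Psma6 (2082). Psmd13 was the lowest of the constitutive core, base and lid genes by either length, at 50.7 per kilobase in WT and 101 in KO on the main transcript. The next lowest were Psmd3 at 155 and Psmd11 at 156 in WT. The lid subunits are present in equal numbers in the complex. The range within the lid is one of read counts per kilobase, and protein was not measured.

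**Figure D4:**
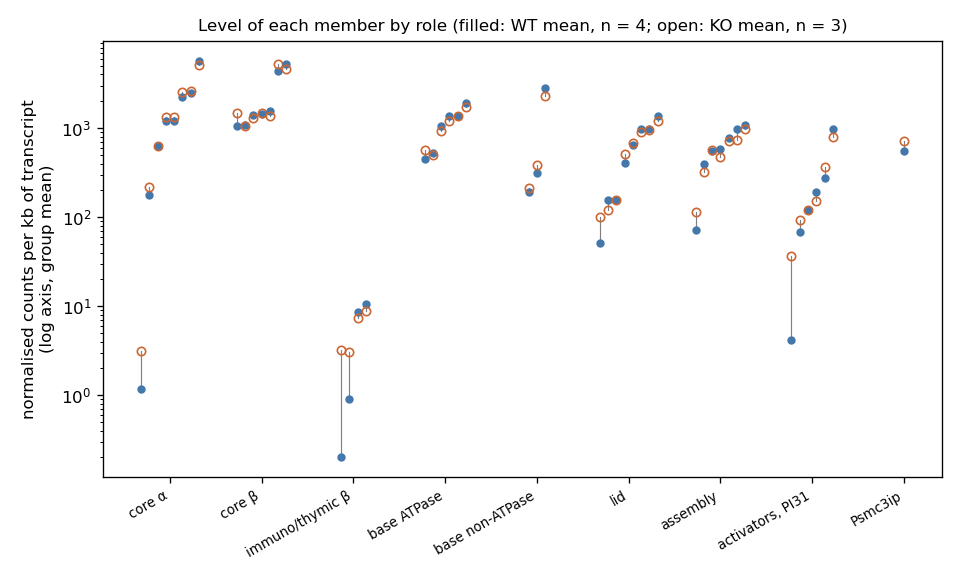
Normalised counts per kilobase of transcript (log axis) of each member by role, with the WT mean (filled, n = 4) and the KO mean (open, n = 3) joined by a line. The core and ATPase genes lie mostly above 400, the immunoproteasome genes below 11, and the widest gaps between the groups are in genes with few reads and in Psmd13.

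The immunoproteasome genes were close to the limit of detection. Psmb8, Psmb9 and Psmb10 encode inducible beta subunits that replace Psmb5, Psmb6 and Psmb7 in immune cells and under interferon. Psmb8 had 2, 1, 2 and 1 reads in WT and 3, 11 and 2 in KO. Once divided by the size factors the KO libraries lay above the WT libraries, but only KO 2 stands apart (log2 fold change 1.05 with SE 0.60; limma adjusted p = 0.319). Psmb9 had 0, 0, 0 and 1 reads in WT and 0, 7 and 6 in KO (log2 fold change 1.67 with SE 0.72; limma adjusted p = 0.179). Psmb9 passed the test without KO 1 (0.0211), and its adjusted p over all alternatives went up to 0.984. It met the filter on low values only through WT 4, KO 2 and KO 3, mostly the group where it is high. Its fold change and that pass therefore carry little weight. Psmb10 had 16, 19, 7 and 13 reads in WT and 8, 16 and 12 in KO, with overlapping groups (log2 fold change -0.21 with SE 0.44; limma adjusted p = 0.832). Per kilobase in WT, Psmb5 stood at 1048 against 0.910 for Psmb8, Psmb6 at 5238 against 0.200 for Psmb9, and Psmb7 at 1453 against 10.7 for Psmb10. Psmb11, the beta subunit of the thymic cortex, had 36.6 ± 12.7 normalised counts in WT (SD, n = 4) and 30.9 ± 9.06 in KO (SD, n = 3).

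Among the activators, Psme1 and Psme2 encode the subunits of a ring that opens the core and is also induced by interferon. Psme1 and Psme2 were singled out here after their values were seen. Psme1 had 7.63, 1.07, 6.54 and 3.25 in WT and 2.73, 76.4 and 41.6 in KO. KO 2 and KO 3 were far above all other libraries and KO 1 was among the WT libraries. The log2 fold change of 2.24 (SE 1.03) did not pass with limma (adjusted p = 0.257), but passed with edgeR (0.0132; 6.53% of all genes called) and, in limma, without KO 1 (0.000522). Without KO 2 and KO 3 it was -0.39. Over all its alternatives adjusted p spanned 0.000522 to 0.906. Psme2 had 64.8, 63.9, 59.8 and 71.5 in WT and 73.6, 106 and 87.5 in KO, each KO library lying above each WT library (log2 fold change 0.44 with SE 0.22; limma adjusted p = 0.255). Psme2b, a copy of Psme2 without introns, had 261, 247, 178 and 240.5 in WT and 246, 367 and 313 in KO (log2 fold change 0.41 with SE 0.18; limma adjusted p = 0.188). Psme2b shares 60.2% of its 75-base stretches with Psme2, and Psme2 22.9% of its own with Psme2b, so the counts of both are uncertain.

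The summed level of granulosa cell markers was likewise high in KO 2 and KO 3. Of the 16 markers fixed for these cells, 16 were detected in KO 2 and 15 in each of KO 1 and KO 3, against 9 to 12 in WT libraries. In 11 of the 16, KO 2 and KO 3 were above all other libraries. The other 5, Inhba, Fshr, Cyp19a1, Kitl and Nr5a2, did not show this order. Some of the 11 were near the floor. Inhbb stood at 1.818 in KO 2 against 1.817 in KO 1, and Fst at 1.09 in KO 3 against 0.953 in WT 1. The share of all genes with this order was not counted. The summed level of the 16 was 438 to 493 in WT, 489.7 in KO 1, 895 in KO 2 and 836 in KO 3. Inha, which encodes the alpha subunit of inhibin, had 66.7, 18.1, 23.4 and 11.9 in WT and 54.5, 395 and 338 in KO. Of the list, Nr0b1 was called higher and Cyp19a1, the aromatase gene, lower (limma adjusted p = 0.0460 and 0.00251). Cyp19a1 had 179 ± 28.4 in WT (SD, n = 4) and 78.2 ± 25.1 in KO (SD, n = 3). Nr0b1 was near the floor, with 0, 1.07, 0 and 0 in WT and 0.908, 14.5 and 6.56 in KO. It reached the filter value of 1 only in WT 2, KO 2 and KO 3. In these pooled libraries more cells of a type and more RNA per cell cannot be told apart. Theca and steroidogenic markers summed to 38.3 to 64.8 in WT and to 58.1, 235 and 364 in KO 1 to KO 3. The high sums in KO 2 and KO 3 were mostly Hsd3b1 (195 and 327, against 6.54 to 44.8 in WT). Cyp11a1 went the other way, at 5.61 to 8.67 in WT and 1.82, 1.82 and 5.47 in KO. Of this list 6 were tested and 0 called by limma. Immune markers summed to 559 to 592 in WT and 196 to 286 in KO, nearly all of it from C1qb, while C1qa, Lyz2 and Cd3e were at 0 in every library but WT 3. C1qb had 513 to 555 in WT and 173 to 248 in KO. Of the immune list 4 were tested, and limma called 0 higher and 1 lower (3.63% of all genes called lower). Endothelial and blood markers summed to 143 to 201 in WT and 131 to 199 in KO, mainly from Pecam1. By mean log2 marker level KO 1 (3.04) also lay above every WT library (1.91 to 2.90), with KO 2 at 4.22 and KO 3 at 3.99. The part of granulosa RNA in the values of Psmd13, Psme1, Psmb8, Psmb9 and Psmg2 was not tested.

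**Figure D5:**
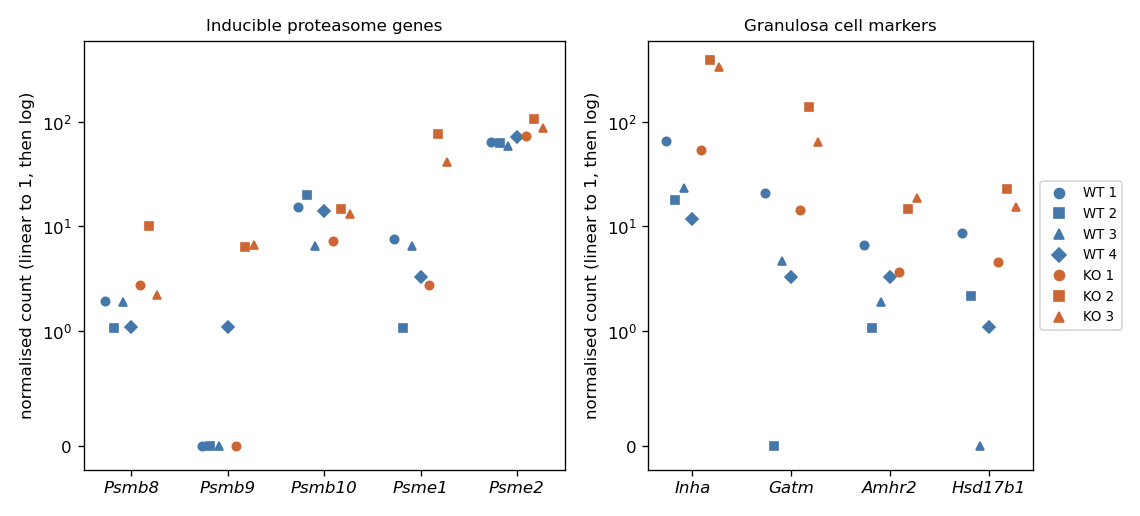
Normalised count (linear up to 1, then log) per library of the inducible proteasome genes (left) and of 4 granulosa cell markers chosen after their values were seen (right; blue WT, orange KO). KO 2 and KO 3 are the high libraries for Psme1, Psmb9 and these 4 markers, an order that 5 of the 16 markers on the list did not show.

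The other regulators did not pass either. Psmf1, which encodes a protein that inhibits the core in vitro, had 4007, 3649, 3306 and 3753 in WT and 3290.45, 2695 and 3062 in KO. Each KO library of Psmf1 lay below each WT library, KO 1 by a narrow margin (log2 fold change -0.29 with SE 0.12; limma adjusted p = 0.162). Psme3, the nuclear activator gene, had 507 ± 69.3 in WT (SD, n = 4) and 403 ± 121 in KO (SD, n = 3). Psme4, whose product is linked to histone degradation, had 777 ± 70.04 and 784 ± 160 (log2 fold change 0.00, 95% interval -0.31 to 0.31). Psmc3ip, the gene that only shares the name, had 827, 751, 522 and 764 in WT and 848, 914 and 978 in KO. All KO libraries were above all WT libraries, without passing (log2 fold change 0.37 with SE 0.15; limma adjusted p = 0.161). Psmc3ip shares 16.0% of its 75-base stretches with the overlapping gene Mlx, which had 497 ± 49.0 and 669 ± 76.4.

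Of 33 other genes of the ubiquitin and proteasome pathway in a fixed list, 2 rose and 0 fell (6.06% called, against 6.71% of all genes), with a median log2 fold change of -0.04. Uba6, an enzyme that activates ubiquitin, had 307, 241, 277 and 281 in WT and 376, 446 and 536 in KO, with no overlap (log2 fold change 0.70 with SE 0.16; limma adjusted p = 0.0122, and 0.0511 without KO 3). Usp14, a deubiquitinase that docks on the base, had 1011, 982, 888 and 913 in WT and 1087, 1425 and 1697 in KO. Usp14 did not overlap between the groups (log2 fold change 0.54 with SE 0.15; limma adjusted p = 0.0292). Its call was lost in 6 of the 7 fits that left out 1 library, the exception being the fit without KO 1, with adjusted p of up to 0.110. It was also lost with the replicate number as a block (0.0805). Over their other alternatives adjusted p ranged from 0.00147 to 0.937 for Uba6 and from 0.00788 to 0.962 for Usp14.

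Ufd1, a cofactor of the segregase Vcp, had 237, 232, 209 and 231 in WT and 237, 401 and 321 in KO, with KO 1 among the WT libraries (log2 fold change 0.46 with SE 0.18; limma adjusted p = 0.128, and 0.0265 without KO 1; up to 0.996 over its alternatives). Sqstm1, an autophagy receptor for ubiquitinated cargo, had 135, 137, 121 and 149 in WT and 159, 296 and 159.7 in KO, where KO 2 was the high library (log2 fold change 0.53 with SE 0.21; limma adjusted p = 0.139). The transcription factor Nfe2l1, which drives proteasome genes when proteasome activity falls, had 192 in WT and 181 in KO on average (log2 fold change -0.11 with SE 0.19; limma adjusted p = 0.791). Pomp, which encodes the maturation chaperone of the core, had 1286 and 1264, and Ubb, a polyubiquitin gene and the most abundant of the list, had 91515 and 85226. Adrm1 and Sem1, whose products belong to the base and lid but whose names lie outside the rule, had log2 fold changes of -0.26 (SE 0.15) and -0.11 (SE 0.14). Nfe2l1, Pomp, Ubb, Adrm1 and Sem1 were chosen for their roles after their values were seen.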

How the data were processed

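RNA was sequenced from 7 libraries of 5 oocytes each as 75-base paired reads. The authors deposited 1 table of normalised signal values per gene and library. The build GRCm38 (mm10) and the tools STAR, cutadapt, FastQC, DESeq2 and DESeq come from the submitters' processing notes. The counter, its strand setting and its handling of overlaps were not given in the sources used here. Whole reads were recovered: 99.9% or more of the values in each library, and 100% of the low ones, were whole multiples of 1 step per library within 0.05 (size factors 0.914 to 1.10).

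The test was limma 3.58.1 (R 4.3.3), with trend and robust estimation, on log2(value + 1), for genes that reached 1 in 3 or more libraries. Adjusted p is Benjamini-Hochberg over all 19227 genes, with a threshold of 0.05. The same fit was also run on simulated counts as a check of the code, and no result here rests on that run. Alternatives were edgeR 4.0.16 (1255 calls) and DESeq2 1.42.0 on the recovered reads, other scalings, pseudocounts and filters, each library left out, a replicate block, and the mean log2 level of the granulosa markers as a covariate. All 50 members matched GENCODE M21, which gave ends, lengths and shared stretches. 5 of 38 fixed pathway symbols had no row.

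The members and lists were chosen with earlier results of these data known. Named are called members, the members of smallest p in each role, the catalytic and inducible subunits, Psma8 and Psmc3ip, and the pathway genes called or of smallest p. Others are said to be chosen later.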

Additional observations from a re-analysis of the deposited data

Results flagged for a closer look

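Among the 50 members and the 4 named pathway genes, the WT libraries were screened for a single library far from the other 3, a screen that chance alone meets in about 1 of 20 groups. The KO group, with 3 libraries, was not screened. Of the 54 genes screened only Psmd13 and Psmb9 were flagged. In Psmd13 WT 1 was low, at 82.0 normalised counts against 105 to 108 in the other WT libraries. Without WT 1 the log2 fold change was 0.89 (limma adjusted p = 0.0159). In Psmb9 WT 4 was the single WT library with a read, at 1.08 normalised counts. A gene with reads in a single WT library meets the screen whatever its value, so this flag carries no weight.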

How the results depend on the processing

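Calls over all genes (1291) ranged from 604 to 1772 with 1 library left out, and were 130 without KO 2 and KO 3 together, 106 without trend and robust estimation, and 1 once mean granulosa marker level entered as a covariate. In these last 3 fits 0 members and 0 pathway genes were called. Without KO 2 and KO 3 the lone KO library is assumed to vary like WT. Mean granulosa marker level was higher in every KO library than in every WT library, so as a covariate it cannot be told apart from the knockout. Members called higher were 1 to 5 with 1 library left out, the 5 being without KO 1 (Psmb5, Psmb9, Psmd13, Psme1 and Psmg2), and 2 with edgeR, without a filter, under quantile normalisation and with the replicate block. Members called lower were 0 or 1 with 1 library left out, and 1 with DESeq2, library total scaling, quantile normalisation or a filter of 10 (Psmg1 each time). Pathway genes called were 0 to 3 higher and 0 or 1 lower with 1 library left out.

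The replicate numbers showed no sign of pairing the libraries (correlations of same-numbered deviations -0.12, 0.03 and 0.02). With so few libraries, each taken against its own group mean, these values cannot settle whether the numbers mark pairs. With the replicate number as a block, which leaves WT 4 without a partner, 1022 genes, 2 members (Psmb5 and Psmd13) and 1 pathway gene (Uba6) were called higher or lower.

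For 26 named genes, 475 of 490 values under the alternatives kept their sign. The other 15 were all uncalled. With the granulosa covariate the log2 fold change was -0.036 for Psma3, -0.056 for Psmb2, -0.28 for Psmb9, -0.090 for Psmg2, -0.15 for Psmb7, -1.95 for Psme1 and -0.019 for Ufd1. Without KO 2 and KO 3 it was -0.26 for Psmb9, -0.20 for Psmb7 and -0.39 for Psme1. For Psmb7 it was -0.021 under library total scaling and ranged from -0.14 (without KO 3) to 0.11 with 1 library left out, also below 0 without WT 1 (-0.0063) or WT 3 (-0.0046). For Psmb10 it ranged from -0.51 to 0.074, above 0 without KO 1. The cause was not tested. Depth limits Psma8, Psmb8, Psmb9, Psmb10 and Psme1, with at most 20.2 normalised counts in any WT library.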
